A study of Mus musculus with 22 samples.

Results

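Zinc finger (Zfp) genes that carry histone H3 lysine 9 trimethylation (H3K9me3) were examined in mouse pluripotent cell lines. The members were the protein-coding and non-coding genes of chromosomes 1 to 19 whose symbol is Zfp followed by a digit, leaving out Zfp12, Zfp316 and Zfp42, with at least 1 H3K9me3 region within 2000 bp of the gene in mm10. Of 403 Zfp genes considered, 167 (41.4%) met this rule and 236 did not. The members were thus chosen by where H3K9me3 regions were called in these libraries, and all H3K9me3 values below are given as a description with no test. The acetylation of histone H3 lysine 27 (H3K27ac) and the HA tag were not used in that choice.

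The cells were induced pluripotent stem (iPS) cells derived from mouse embryonic fibroblasts of strain C57BL/6. The line called C2 had been made with 3 zinc finger artificial transcription factors (ZFATF1, ZFATF2 and ZFATF3) together with Sox2, Klf4 and c-Myc (SKM). The line called C3 carried ZFATF1, ZFATF2 and ZFATF4 with SKM, and the line called OSKM carried Oct4 with SKM. All 3 lines thus shared SKM, and all iPS cells received 100 nM 4-hydroxytamoxifen, which acts on the MerCreMer recombinase of their Oct4 reporter. Each line had 2 chromatin immunoprecipitation sequencing (ChIP-seq) libraries per histone mark. The HA tag of the artificial factors was assayed in C2+SKM cells at day 20 and in Empty+SKM cells, again with 2 libraries each. How the replicate libraries were made was not labelled, so p-values measure only the spread between these samples, which may be technical.

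Most Zfp genes encode DNA-binding proteins with rows of C2H2 zinc fingers, and many of these proteins also hold a KRAB domain. KRAB zinc finger proteins recruit Trim28, which brings the methyltransferase Setdb1 to retroelements and imprinted regions, where Setdb1 deposits H3K9me3. The genes of this family lie in clusters of related copies, and their zinc finger exons, near the end of the gene, are a known place of H3K9me3. H3K27ac marks active promoters and enhancers.

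The members included related copies as well as genes with a promoter of their own. Their RefSeq promoters (GRCm38.p6, the 250 bases upstream of the start site) show both cases, and the promoter windows of 140 members could be compared. Of these, 42 shared a run of at least 51 bases with the window of another gene, and 19 shared over 50% of such runs. Shared sequence means that reads can be hard to place in these genes. In the first 3 promoters below, capitals mark bases in runs of at least 51 bases that also occur in the window of another gene, where a window is 300 bases and a run may continue past the bases printed. Zfp951 and Zfp33b, on chromosome 5, ranked first and eleventh in H3K9me3 among the members, and Zfp966 on chromosome 2 ranked among the lowest.

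Zfp951, chr5:104860069-104860318, minus strand: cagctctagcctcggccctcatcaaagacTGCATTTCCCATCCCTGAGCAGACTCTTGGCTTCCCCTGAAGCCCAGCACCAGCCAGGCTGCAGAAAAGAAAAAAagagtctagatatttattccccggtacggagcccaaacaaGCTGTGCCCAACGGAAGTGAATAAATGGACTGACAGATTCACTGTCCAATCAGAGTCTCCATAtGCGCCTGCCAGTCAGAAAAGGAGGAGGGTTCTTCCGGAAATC
Zfp33b, chr5:104571422-104571671, plus strand: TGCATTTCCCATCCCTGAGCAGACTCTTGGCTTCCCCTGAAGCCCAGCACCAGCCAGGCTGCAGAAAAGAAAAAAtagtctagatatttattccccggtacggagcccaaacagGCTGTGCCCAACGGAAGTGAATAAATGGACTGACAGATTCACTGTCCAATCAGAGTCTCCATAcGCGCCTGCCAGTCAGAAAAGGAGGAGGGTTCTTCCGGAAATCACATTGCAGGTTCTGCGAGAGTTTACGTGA
Zfp966, chr2:175931101-175931350, minus strand: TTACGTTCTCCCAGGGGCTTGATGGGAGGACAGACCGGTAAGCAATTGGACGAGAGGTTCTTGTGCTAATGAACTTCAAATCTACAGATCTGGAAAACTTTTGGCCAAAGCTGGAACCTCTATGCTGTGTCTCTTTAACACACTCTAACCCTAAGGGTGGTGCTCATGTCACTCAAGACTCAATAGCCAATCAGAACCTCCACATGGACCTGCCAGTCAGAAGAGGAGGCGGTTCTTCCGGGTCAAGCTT

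The Zfp966 promoter was identical to that of its neighbour Zfp967 in all 250 bases, and its window shared runs with 25 other genes. The longest run that Zfp951 and Zfp33b had in common was 92 bases over their windows. Zfp445 on chromosome 9 encodes a KRAB protein that maintains imprints together with Zfp57, and Zfp827 lies on chromosome 8, the chromosome that held most H3K27ac calls among the members. In their promoters, capitals mark each CG dinucleotide.

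Zfp445, chr9:122866007-122866256, minus strand: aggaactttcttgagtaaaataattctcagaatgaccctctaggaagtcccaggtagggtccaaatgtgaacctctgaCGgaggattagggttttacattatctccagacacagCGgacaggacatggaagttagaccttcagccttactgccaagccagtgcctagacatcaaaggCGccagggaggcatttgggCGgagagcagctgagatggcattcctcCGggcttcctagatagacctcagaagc
Zfp827, chr8:79028187-79028436, plus strand: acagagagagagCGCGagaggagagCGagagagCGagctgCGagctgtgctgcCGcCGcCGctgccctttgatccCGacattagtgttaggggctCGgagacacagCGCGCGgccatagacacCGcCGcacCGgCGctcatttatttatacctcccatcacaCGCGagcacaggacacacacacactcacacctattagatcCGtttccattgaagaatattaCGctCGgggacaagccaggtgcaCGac

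The Zfp445 promoter held 5 CG dinucleotides and that of Zfp827 held 23. Over windows of 300 bases around the start site (250 before, 50 after), the median was 10.5 CG dinucleotides in 140 members, 15 in 187 other Zfp genes and 7 in 25748 genes in all. The motif GGGCGG, searched on both strands as the core of the GC box, occurred in 37.1% of member windows, in 48.1% of windows of other Zfp genes and in 36.3% of all windows.

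Both marks were present at most members, at different places in the gene. H3K9me3 lay mainly in the body and toward the end of the gene, while H3K27ac lay at the start. For 140 members with a known start site, the centre of the strongest H3K9me3 region had a median position of 0.60 on a scale in which 0 is the start and 1 the other end of the gene (quartiles 0.30 and 0.92). In 58 of them (41.4%) the centre fell in the final 25% of the gene or beyond, against 30.9% of 4390 other protein-coding genes with H3K9me3. Only the region of Zfp872 covered a start site. H3K27ac, in 137 members, had a median position of 0.02, and 95 of its regions (69.3%) covered the start site. That share was 74.6% in 181 other Zfp genes and 31.4% in 3783 other protein-coding genes with H3K9me3.

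**Figure D1:**
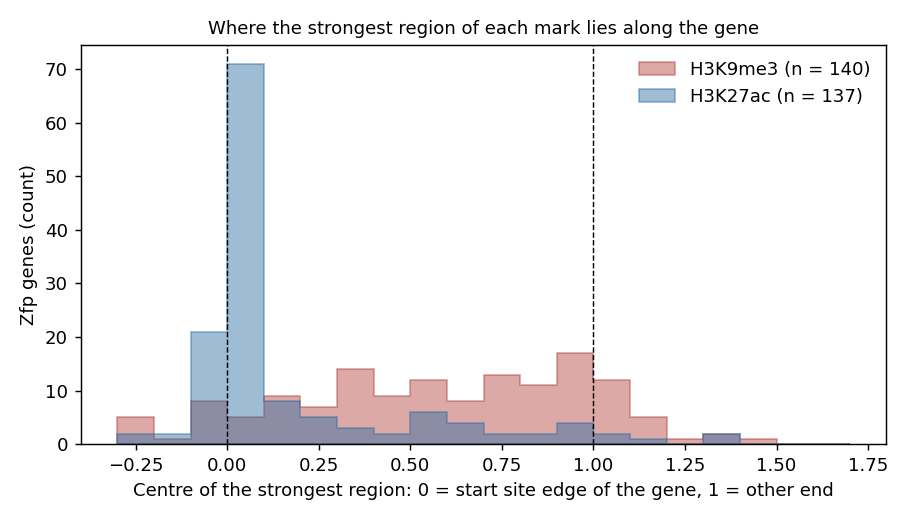
Histogram of Zfp genes by the position of the centre of their strongest region along the gene (x axis, no unit: 0 is the start site edge, 1 the other end; y axis, number of genes), for H3K9me3 (140 genes) and H3K27ac (137 genes). H3K27ac gathers at 0 with a median of 0.02, and H3K9me3 spreads over the gene with a median of 0.60.

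An H3K27ac region lay within 2500 bp of 162 members (97.0%), the same share as in the other Zfp genes (97.0%). The 5 members without one were Zfp813-ps, Zfp352, Zfp992, Zfp735 and Zfp488. In 10 members the strongest regions of both marks overlapped, and the median distance between them was 9655 bp. The median H3K27ac level was 237 normalized reads in members, 212 in other Zfp genes and 143 in all genes with a region. A normalized read is the unit of the deposited region tables, in which the lowest value of a library is worth 1 read. Levels here are means over the 3 tables of a mark and are not divided by region length, so they describe a region and not a density. Across 162 members the levels of both marks had a Spearman rho of 0.24, a description of genes that share libraries.

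The label of the members held for most but not all of them. In 147 members an H3K9me3 region touched the gene itself, while in 20 the nearest region lay outside it, the farthest at 1957 bp (Zfp738). The closest gene just outside the rule was Zfp386, at 2117 bp, and 36 Zfp genes had their nearest region between 2000 and 5000 bp away. The members held a median of 2 regions. Zfp978, whose annotated extent is long, held 38 and Zfp936 held 21, while 79 members held 1. In the strongest region of each gene, H3K9me3 ranged over members between 1.03 and 3720 normalized reads with a median of 89.4. It was under 10 in 19 members and at least 500 in 23 members (13.8%), against 1.57% of all H3K9me3 regions. The last share is over single regions, while a member gives only its strongest, so a higher share in members is built in. The median was 28.6 over all regions and 60.2 over the strongest regions of other genes. How many of the latter reached 500 was not counted. The peak lists give a second view: 14 members had a peak in both libraries of no line, and 95 had one in both libraries of every line.

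The strongest members were few and stood far above the rest. Zfp951, on the minus strand of chromosome 5, had its region at chr5:104807028-104830248, inside the gene. Its H3K9me3 was 3356 and 3687 normalized reads in C2, against 4356 and 4452 in OSKM. In the table of C3 and OSKM, normalized separately, it was 3529 and 3671 in C3, against 4859 and 4874 in OSKM. Both lines lay below OSKM without overlap, at log2 ratios of -0.32 for C2 and -0.43 for C3.

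Zfp982, on chromosome 4, was next with 3186 and 2889 in C2 against 3781 and 4092 in OSKM, and with 3694 and 3587 in C3 against 4218 and 4479.9 in OSKM. Zfp445 had 1081 and 1398 in C2 against 1645 and 1799 in OSKM, and 1185 and 1279 in C3 against 1835 and 1969 in OSKM. Again no library of C2 or C3 reached the lower OSKM library. Zfp936 on chromosome 7 had 929.7 and 1369 in C2 against 1575 and 1684 in OSKM, and 771 and 917 in C3 against 1757 and 1843 in OSKM. Of the other 6 among the 10 highest (Zfp978, Zfp988, Zfp160, Zfp992, Zfp934 and Zfp407), Zfp978 and Zfp988 share a region. Zfp992 overlapped between C2 (1001 and 1247) and OSKM (1244 and 1281).

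**Figure D2:**
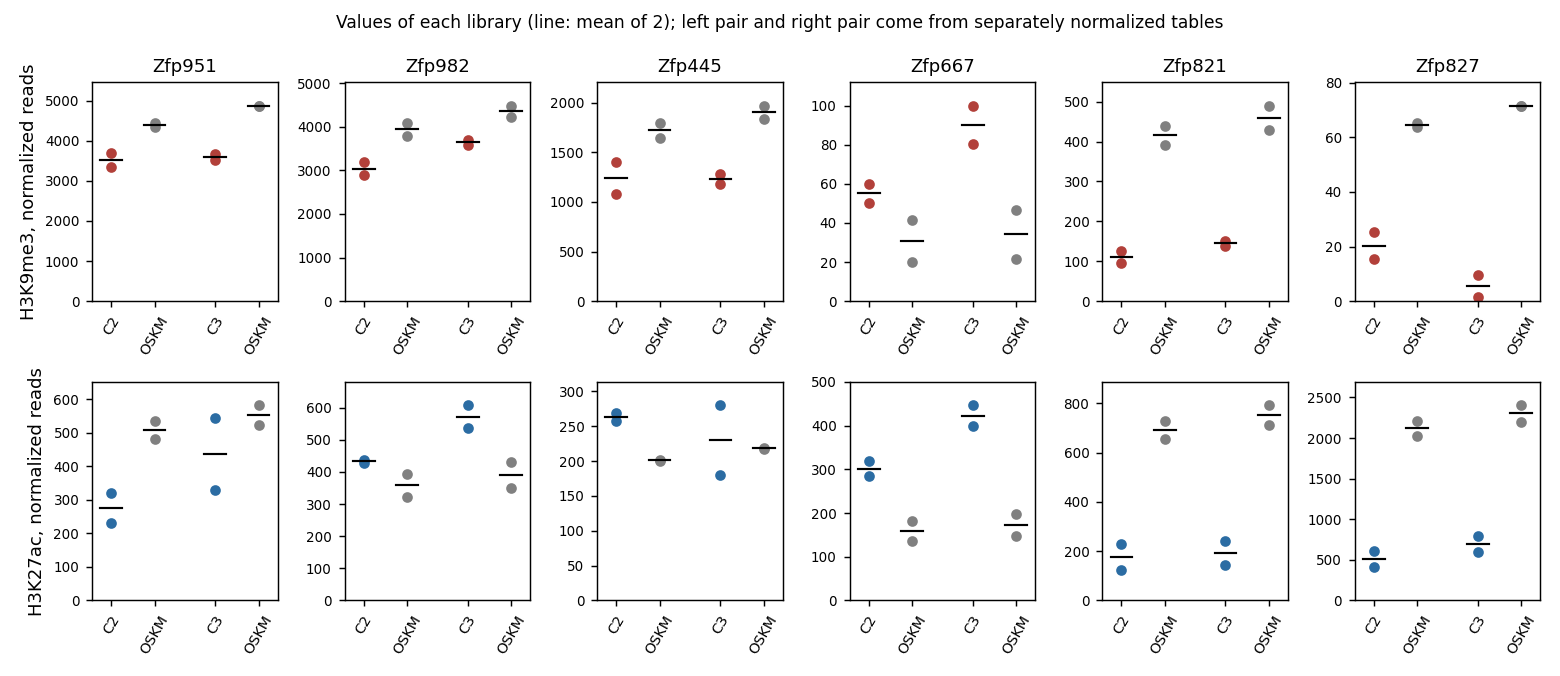
Normalized reads of each library (y axis, linear from 0) for H3K9me3 (upper row) and H3K27ac (lower row) in 6 Zfp genes, with a line at the mean of 2 libraries. In each panel the left pair is C2 and OSKM and the right pair C3 and OSKM, from separately normalized tables, so levels compare only within a pair. H3K9me3 at Zfp951 is 3356 and 3687 in C2 against 4356 and 4452 in OSKM, while both marks at Zfp821 and Zfp827 are far lower in C2 and C3 than in OSKM.

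The members fell into 76 groups along the chromosomes when neighbours within 1000000 bp were joined. Of these, 13 groups held at least 4 members and 86 members in all, 32 members lay in groups of 2 or 3, and 49 lay alone. The median H3K9me3 was 99.7 normalized reads in the groups of at least 4 and 76.9 in the members alone. The centre of the region lay at a median position of 0.63 in those groups (78 genes) and of 0.50 in the lone members (35 genes).

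Among the 13 groups of at least 4 members, the group on chromosome 4, which spans 2.34 Mb, was the largest and had the highest median H3K9me3, with a median of 459 normalized reads. It held 16 members, all 16 Zfp genes of its span, and ranged between 1.75 and 3416. Of these 13 groups, that of Zfp936 and Zfp977 on chromosome 7 followed with a median of 366 over 5 members. The group on chromosome 9 with Zfp872 and Zfp809 was even, between 199 and 383 over 4 members. The group on chromosome 13 held 13 of 25 Zfp genes in its span with a median of 50.3, and its highest members were Zfp85os and Zfp455. On chromosome 17 the group with Zfp160 and Zfp942 held 9 of 18 Zfp genes with a median of 132, and the group with Zfp871 and Zfp81 held 4 of 14 with a median of 161.

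The other groups on chromosome 7 had medians of 62.9 (Zfp444 and Zfp418), 62.1 (Zfp180 and Zfp575), 120 (Zfp850 and Zfp607b) and 34.8 (Zfp790 and Zfp940). The weakest of the 13 were those of chromosome 2, with Zfp972 and Zfp971 and a median of 8.04, and of chromosome 6, with Zfp398 and Zfp467 and a median of 24.7. On chromosome 2, Zfp966 and Zfp967 were near 1 read in every library. They and Zfp970 (8.04) shared 100% of the runs of 51 bases of their promoter windows with other genes. Zfp971 (14.7) shared 47.2%, while Zfp972 shared 0% and had 143. The part of reads that are hard to place in the low values of this group was not tested. The 4 neighbours Zfp709, Zfp882, Zfp617 and Zfp961 on chromosome 8 had a median of 96.5.

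**Figure D3:**
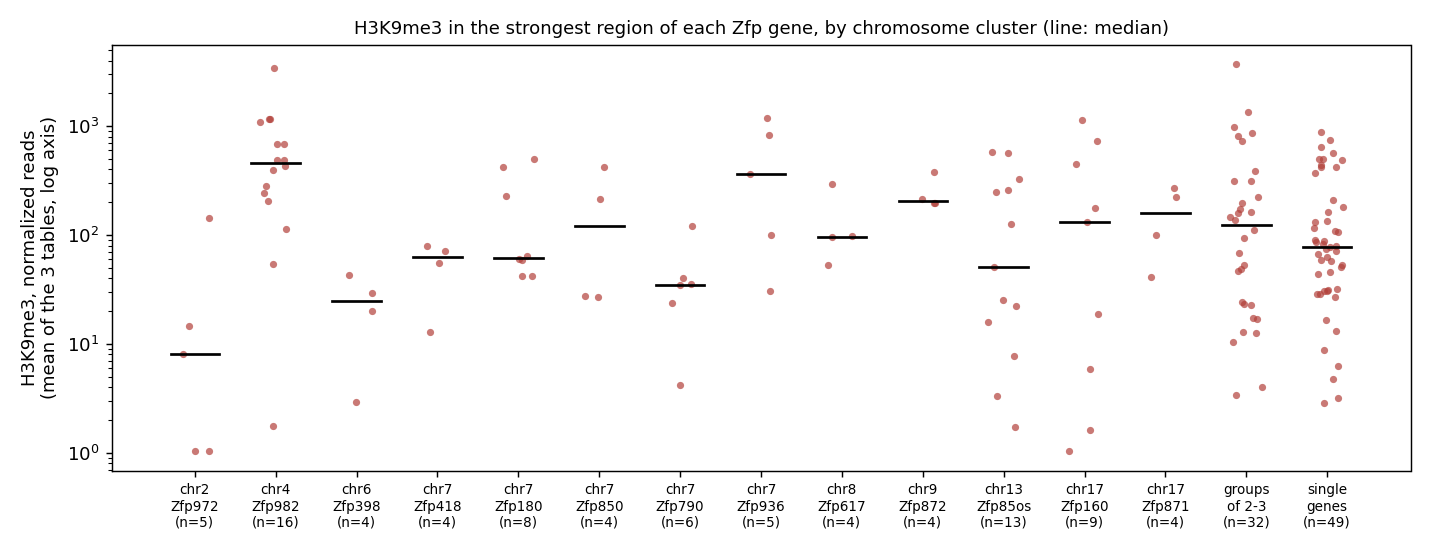
H3K9me3 of the strongest region of each Zfp gene (y axis, normalized reads as the mean of the 3 tables, log axis), by chromosome group, with each group named by its chromosome and a leading gene and a line at its median. The chromosome 4 group has the highest median (459) and the chromosome 2 group the lowest (8.04). Most genes of the chromosome 2 group share promoter sequence with other genes, where reads can be hard to place.

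H3K9me3 was lower in C2 and in C3 than in OSKM at more members than it was higher. In C2, both libraries lay below both OSKM libraries at 69 of 167 members (41.3%) and above them at 36 (21.6%), with a median log2 ratio of -0.21. Over all H3K9me3 regions, the shares were 26.2% lower and 27.1% higher. Over the strongest regions of other genes they were 39.7% lower and 16.1% higher, with a median of -0.22. In C3, the libraries lay below OSKM at 91 members (54.5%) and above at 27 (16.2%), with a median of -0.42. All regions gave 25% lower and 19.4% higher, and the strongest regions of other genes gave 42.0% and 14.7% with a median of -0.23. A lower value can come from fewer cells with the mark, from less mark per cell or from other sources, such as the scaling. These were not tested and cannot be told apart. The lower members include 12 of the 15 on chromosome 8 in each line, a chromosome that was lower as a whole.

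Among the 79 members with a mean of at least 100 normalized reads, 47 (59.5%) were lower in C2 and 58 (73.4%) were lower in C3. In the strongest regions of other genes at that level, 59.6% were lower and 6.92% higher in C2, and 56.1% lower and 14.0% higher in C3. The members at that level that were higher numbered 10 in C2 and 7 in C3. Both comparisons share the OSKM libraries, so these counts are not independent. Each library was scaled by the authors within a table. Under quantile normalization the median over members turned to 0.04 in C2 and was -0.24 in C3, so the direction in C2 depended on the scaling.

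The differences were uneven between the 13 groups of at least 4 members. Among these, the 4 neighbours on chromosome 8 had the lowest medians, at -1.75 in C2 and -2.03 in C3, and all 4 lay below OSKM without overlap in both lines. Chromosome 8 as a whole was lower: the median over its stronger regions (above the median level of the mark) was -0.97 in C2 and -0.83 in C3, against -0.14 and -0.05 on the other autosomes. Outside chromosome 8, 57 of 152 members lay below OSKM in C2 and 35 above (median -0.19), and 79 lay below and 27 above in C3 (median -0.38). The strongest regions of other genes outside chromosome 8 gave 37.5% below and 16.8% above in C2, and 40.1% below and 15.5% above in C3. Under quantile normalization the medians over the 152 members were 0.07 in C2 and -0.21 in C3, so the direction in C2 turned.

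On chromosome 4, 8 of 16 members were lower and 5 higher in C2, and 12 were lower and none higher in C3. The group medians there were -0.28 in C2 and -0.47 in C3, and under quantile normalization they were 0.13 and -0.21. The group of Zfp936 and Zfp977 had medians of -0.40 and -1.03, against -0.06 and -0.79 under quantile normalization, and 4 of its 5 members were lower in C3. The group of Zfp850 and Zfp607b had -0.47 and -0.95. Zfp607b itself had 55.1 and 112 normalized reads in C3 against 417 and 392 in OSKM, a log2 ratio of -2.35. The group of Zfp180 had medians above 0, at 0.14 and 0.18. Of its 8 members, 1 was higher and 2 were lower in C2, and 3 were higher and 1 was lower in C3. Zfp180 had 622 and 569 in C2 against 367 and 332 in OSKM, and 682 and 623 in C3 against 409.7 and 363 in OSKM, above OSKM in both lines.

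**Figure D4:**
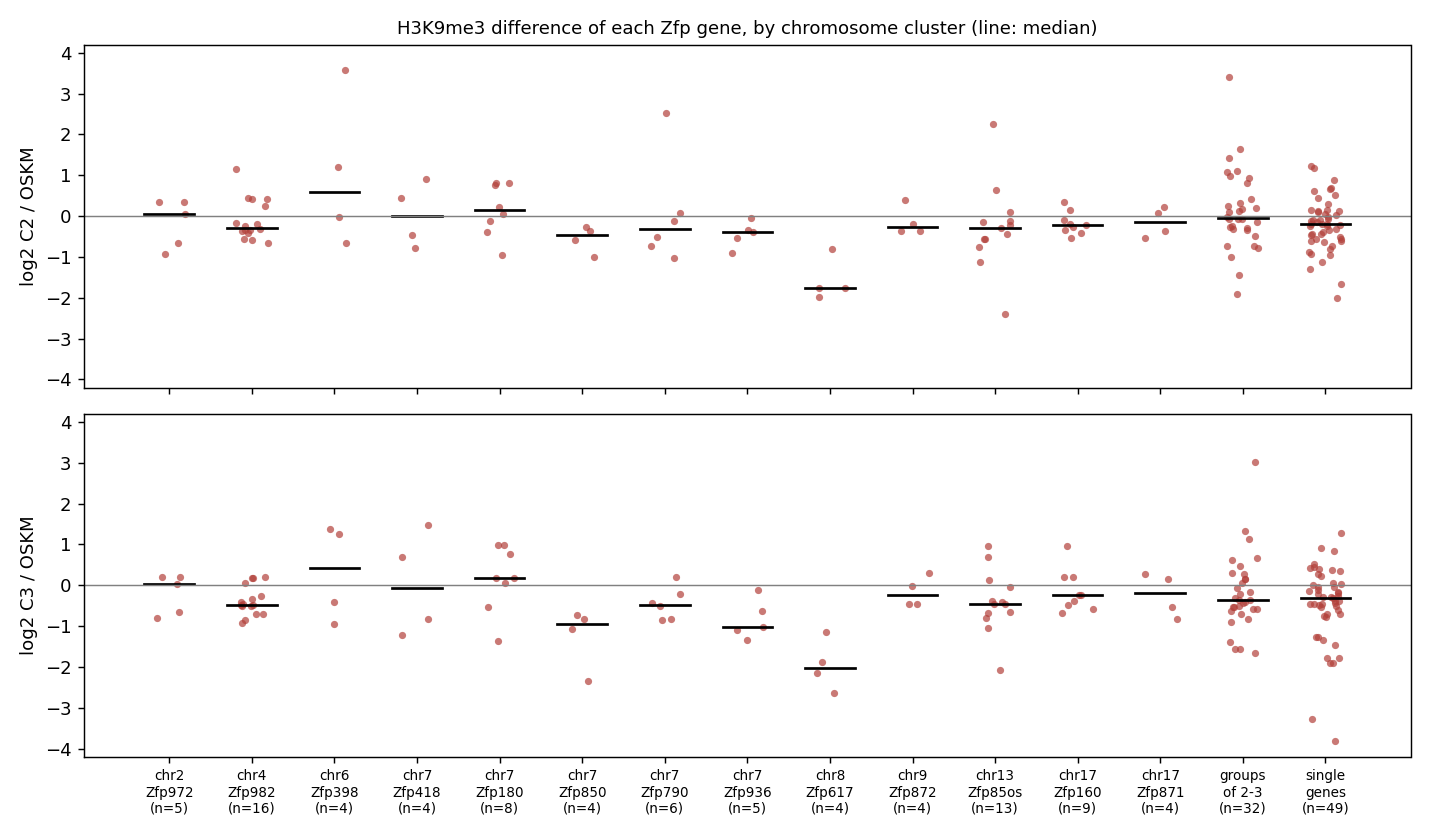
log2 ratio of H3K9me3 over OSKM in the strongest region of each Zfp gene (y axis), for C2 in the upper panel and C3 in the lower panel, by chromosome group with a line at the group median. The 4 genes of the chromosome 8 group lie below 0 in both panels, with medians of -1.75 in C2 and -2.03 in C3.

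Besides Zfp607b, the largest single differences included weakly marked genes and genes on chromosome 8. Zfp935 on chromosome 13 had 31.0 and 29.3 normalized reads in C2 against 0.852 and 3.67 in OSKM, and 25.8 and 22.8 in C3 against 0.951 and 4.02 in OSKM. Both lines lay far above OSKM at this gene. Zfp777 had 75.7 and 19.5 in C2 against 3.41 and 1.47 in OSKM, and its C3 libraries (27.6 and 1.52) overlapped OSKM (3.8 and 1.61). Zfp68 had 59.5 and 94.2 in C3 against 24.7 and 37.0 in OSKM. Zfp827 had 9.48 and 1.52 in C3 against 71.3 and 71.5 in OSKM, and the lower C3 value is 1 read, so that no ratio is given. Zfp469, the mouse gene of human ZNF469, had 65.5 and 10.6 in C3 against 239.6 and 299 in OSKM. Zfp568, Zfp953, Zfp660 and Zfp212 were also among the highest ratios, but each had a library of OSKM at 1 read, as Zfp935 did, so that no ratio is given for them.

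Set against each other in their own table, C2 lay above C3 at 53 members (31.7%) and below at 19 (11.4%), with a median log2 ratio of 0.15. Over all regions the shares were 13.7% above and 18.6% below, and over the strongest regions of other genes 20.1% and 17.4%, with a median of 0.05. At a mean of at least 100 normalized reads, 30 of 79 members were above and 10 below, against 19.8% and 25.8% of the strongest regions of other genes. Outside chromosome 8 the counts were 48 above and 17 below of 152, against 20.6% and 17.1% of the strongest regions of other genes. On chromosome 4, 8 of 16 members were above and 1 was below. Zfp469 had 94.8 and 101 normalized reads in C2 against 52.2 and 8.29 in C3, and Zfp936 had 809 and 1208 in C2 against 615 and 715 in C3. Zfp273 and Zfp820 went the other way, with 9.98 and 11.1 in C2 against 13.7 and 29.6 in C3 for Zfp273. Zfp735 had 149 and 97.2 in C2 against 172 and 162 in C3.

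H3K9me3 peaks called by the authors in each library were found at fewer members in C2 and C3 than in OSKM. A peak in both libraries was present at 106 members (63.5%) in C2, at 110 (65.9%) in C3 and at 147 (88.0%) in OSKM. Over all genes the shares were 14.2%, 13.9% and 20.7%. The members were chosen by H3K9me3 regions, which come from such peaks, so higher shares than over all genes were built in. The shares over other genes with an H3K9me3 region were not counted. At 33 members both OSKM libraries had a peak while neither C2 nor C3 had one in both. The same count over other genes was not made. Over all genes, 9754 had a peak in both libraries in OSKM, 6688 in C2 and 6519 in C3. At Zfp68, Zfp568 and Zfp90 only C3 had one in both, but the strongest regions of Zfp68 and Zfp568 did not set C3 apart. Zfp68 had log2 ratios over OSKM of 1.17 in C2 and 1.28 in C3. In the group of Zfp568 the highest ratio of C3 over OSKM was 0.21, and at Zfp568 C2 lay above C3 without overlap. The number of peaks of a library differed as well, between 56350 and 96055, with 69446 and 64028 in C2 and 90392 and 93735 in OSKM. C3 had 153 members with a peak in 1 library and 110 in the other. The part of peak number in these counts was not tested.

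H3K27ac, which the choice of members did not use, was tested with limma on log2(normalized reads + 1) over all 135566 regions of each table. A region was called where the Benjamini-Hochberg adjusted p was under 0.05 over all regions and again with the lowest 25% of regions left out. Of the 162 members with a region, 160 passed that filter on low values. In C2, 20 members (12.3%) fell and 2 (1.23%) rose relative to OSKM. Over the strongest region of every gene, 7.66% were called lower and 3.33% higher, and over those of other Zfp genes 4.89% and 0.444%. In C3, 15 members (9.26%) fell and 4 (2.47%) rose, against 7.69% and 8.62% over every gene and 6.67% and 1.33% over other Zfp genes. Over all regions, 3.91% were lower and 3.72% higher in C2, and 6.13% and 9.67% in C3. Both comparisons share the OSKM libraries. The median log2 ratio over members was -0.39 in C2 and -0.21 in C3, over all genes -0.17 and -0.06, and over other Zfp genes -0.35 and -0.21. Under other scalings the median over members in C2 was -0.04 with quantile normalization and -0.50 with median-centred libraries, and in C3 it was -0.03 with DESeq2 and -0.38 with median-centred libraries.

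Most of the members called lower than OSKM were on chromosome 8. Here and below, fell and rose mean called lower or higher than OSKM. Of its 15 members, 14 fell in C2 and 12 in C3, with medians of -1.52 and -1.10. Chromosome 8 held 4.15% and 3.46% of the H3K27ac reads in regions in C2 and 4.29% and 3.84% in C3, against 7.61% and 7.48% in OSKM. For H3K9me3 the shares were 3.61% and 3.86% in C2 and 4.25% and 4.06% in C3, against 6.14% and 5.99% in OSKM. Its stronger H3K27ac regions had a median of -1.36 in C2 and -1.10 in C3, against -0.09 and 0.00 on the other autosomes. A ratio to OSKM does not tell a loss in C2 and C3 from an excess in OSKM. The part of this chromosome-wide shift in the values of single genes was not tested. Outside chromosome 8, 6 of 147 members (4.08%) fell and 2 rose in C2, and 3 (2.04%) fell and 4 rose in C3. All regions outside chromosome 8 gave 2.79% lower and 3.89% higher in C2 and 4.99% lower and 10.0% higher in C3. These shares are not like for like, since each member gives only its strongest region. With chromosome 8 included, 7.66% of the strongest regions of every gene were lower in C2, against 3.91% of all regions. In C3 these shares were 7.69% and 6.13%. The share over strongest regions outside chromosome 8 was not counted.

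**Figure D5:**
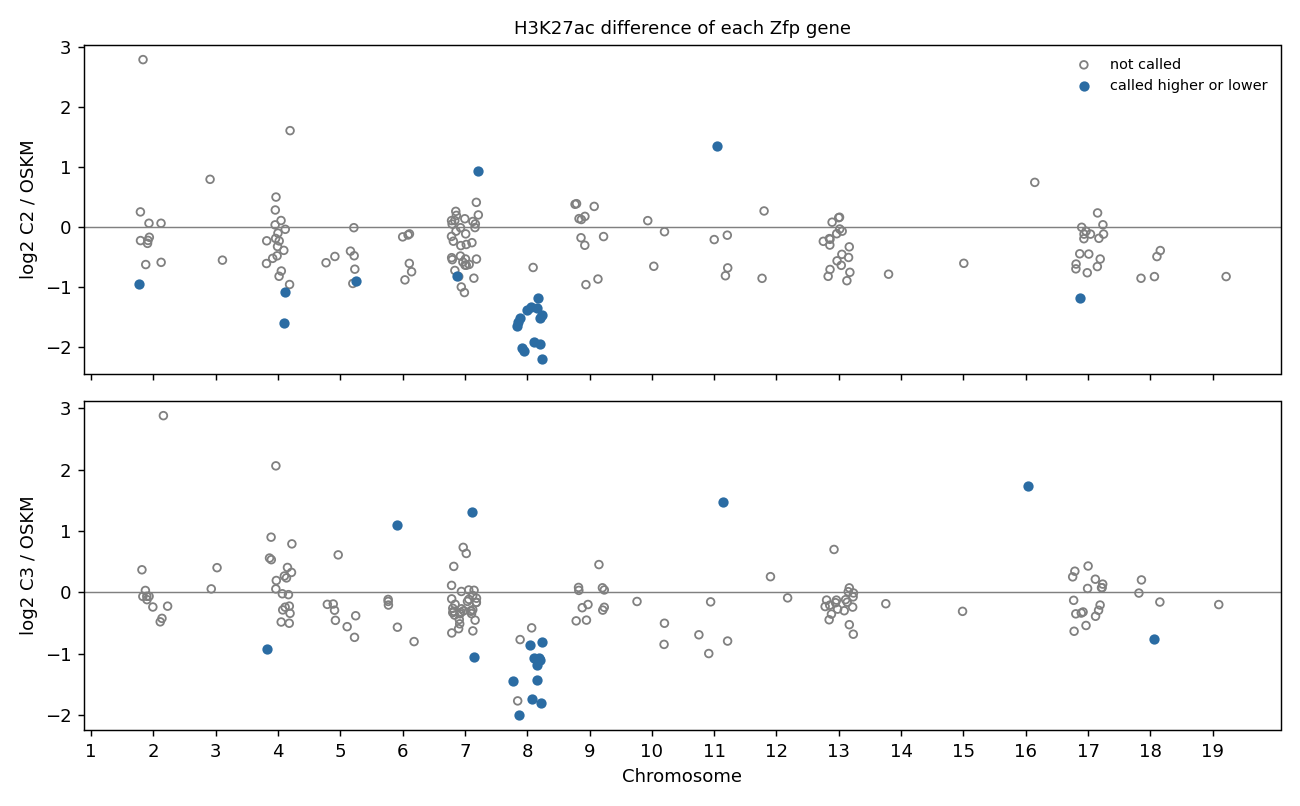
log2 ratio of H3K27ac over OSKM in the strongest region of each of 162 Zfp genes (y axis), for C2 in the upper panel and C3 in the lower panel, by chromosome (x axis). Filled points are called higher or lower and open points are not called, and 14 of 15 genes on chromosome 8 are called lower in C2 and 12 of 15 in C3.

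On chromosome 8, Zfp827 had 614 and 417 normalized reads of H3K27ac in C2 against 2027 and 2212 in OSKM (log2 ratio -2.06, SE 0.26, limma adjusted p = 0.00011). In C3 it had 798 and 594 against 2202 and 2406 in OSKM (-1.74, SE 0.28, limma adjusted p = 0.0027). Its promoter, printed above, lies within this region. Zfp821 had 231 and 126 in C2 against 655 and 729 in OSKM (-2.01, limma adjusted p = 0.00012), and 243 and 144 in C3 against 712 and 793 in OSKM (-2.0, limma adjusted p = 0.0012). At both genes H3K9me3 was lower as well, with 96.3 and 127 in C2 against 439 and 391 in OSKM at Zfp821. The call of Zfp827 in C3 was lost without either OSKM library. Zfp423, a regulator of preadipocyte commitment, fell in both lines, with log2 ratios of -1.66 in C2 and -1.44 in C3, the second lost without OSKM replicate 1. Its H3K9me3 was 11.5 and 64.1 in C2 against 113 and 112 in OSKM. The H3K27ac region of Zfp423 lies 263422 bp from the start site and that of Zfp821 lies 11256 bp away, so neither is at the start site.

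Zfp964, Zfp958, Zfp869 and Zfp469 also fell in C2, with log2 ratios of -2.21, -1.95, -1.91 and -1.58. Zfp791, Zfp930, Zfp612, Zfp869 and Zfp90 fell in C3, with log2 ratios of -1.81, -1.43, -1.19, -1.10 and -1.08. Zfp882 and Zfp617 share 1 H3K27ac region, with log2 ratios of -1.52 in C2 and -1.07 in C3. This region covers the start site of Zfp617 and lies 12709 bp from that of Zfp882. Without OSKM replicate 2 the calls of Zfp964 in C2 and Zfp612 in C3 were lost, and without OSKM replicate 1 that of Zfp469 in C2. The C3 calls of Zfp869, Zfp882, Zfp617 and Zfp90 were lost without either OSKM library and with DESeq2. Of the 15 members on chromosome 8, Zfp612 was not called in C2, and Zfp964, Zfp961 and Zfp469 were not called in C3.

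Outside chromosome 8, Zfp462 had the largest fall in C2. This gene encodes a zinc finger protein that takes part in heterochromatin formation in mouse embryonic stem cells. Its H3K27ac was 920.5 and 595 normalized reads in C2 against 2242 and 2253 in OSKM (log2 ratio -1.60, SE 0.28, limma adjusted p = 0.0012). Without either OSKM library this gene was no longer called. In C3 it was 2172 and 1407 against 2436 and 2450.4 in OSKM, which was not called (limma adjusted p = 0.40). Its H3K9me3 went the other way: 737 and 748 in C2 against 322 and 314 in OSKM, and 555 and 449.5 in C3 against 359 and 343 in OSKM. In both lines the H3K9me3 libraries lay above OSKM without overlap, and its regions of both marks overlap.

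Zfp951, the member with the most H3K9me3, had 319 and 231 normalized reads of H3K27ac in C2 against 481 and 536 in OSKM (-0.90, SE 0.23, limma adjusted p = 0.020). In C3 it had 545 and 329 against 522 and 583 in OSKM (-0.38, limma adjusted p = 0.42). The H3K27ac region spans the promoter printed above. The call in C2 was lost with DESeq2, in the authors' deposited table, with a pseudocount of 8 and without either OSKM library. Zfp385b, Zfp984, Zfp977 and Zfp13 also fell in C2, with log2 ratios of -0.95, -1.08, -0.82 and -1.18. Zfp984, Zfp420 and Zfp236 fell in C3, with log2 ratios of -0.92, -1.05 and -0.75. Without OSKM replicate 1, none of these calls in C2 or C3 was kept. With DESeq2, the calls in C2 of Zfp385b, Zfp977 and Zfp13 and all 3 in C3 were lost. The H3K27ac regions of Zfp385b and Zfp420 lie 401534 and 18870 bp from the start sites.

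Zfp667 and Zfp652os rose in both lines, although the call of Zfp667 in C2 did not hold under many alternatives. Zfp667 had 319 and 284 normalized reads in C2 against 135 and 182 in OSKM (0.94, SE 0.24, limma adjusted p = 0.017), and 447 and 398 in C3 against 147 and 198 in OSKM (1.3, SE 0.24, limma adjusted p = 0.0053). The call in C2 was lost with DESeq2, in the authors' deposited table and without any 1 of the 4 libraries, and the call in C3 was lost without OSKM replicate 1. The region lies 10839 bp from the start site. H3K9me3 at Zfp667 was also higher, with 100.0 and 80.5 in C3 against 46.6 and 21.7 in OSKM. Zfp652os, a non-coding RNA gene, had 428 and 344 in C2 against 140.2 and 161 in OSKM (1.35, SE 0.23, limma adjusted p = 0.0011), and 678 and 307 in C3 against 152 and 175 in OSKM (1.48, limma adjusted p = 0.011). Its call in C2 was lost without OSKM replicate 1. Zfp638 and Zfp654 rose in C3 and were not called in C2. Zfp654 had 568 and 296 in C3 against 97.1 and 156 in OSKM (1.73, limma adjusted p = 0.0059). Without C3 replicate 1 it was no longer called. The call of Zfp638 in C3 was lost with median-centred libraries, with a pseudocount of 8 and without either OSKM library. In the table of C2 and C3, limma called none of these 4 genes. The H3K27ac region of Zfp638 lies 18376 bp from the start site.

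The calls depended on single libraries and on the scaling. Leaving out OSKM replicate 1 or replicate 2 left 10 lower members in C2, and 5 or 6 in C3. Leaving out a C2 library raised the lower members in C2. Leaving out C3 replicate 1 raised the lower members in C3, and leaving out C3 replicate 2 raised the higher ones. The share called over all regions moved as well: it fell without an OSKM library and rose without a library of C2 or C3. Each such fit leaves 1 library in a line. Quantile normalization gave 0 calls for members in every comparison, and it called 4 regions of all 135566 in C2 and 15 in C3. With libraries centred on their median, which shifted the median of all regions by -0.11 in C2 and -0.17 in C3, 48 members were lower in C2. With edgeR, 2 members were higher and 30 lower in C2, and 4 higher and 14 lower in C3. With DESeq2 the C3 comparison had 4 members higher and 5 lower, and the authors' deposited table had 6 higher and 8 lower. All counts here refer to the 162 members with a region. Over all regions, the main fit in C2 called 7.63% in either direction, against 12.5% with median-centred libraries and 9.53% with edgeR. In C3 the main fit called 15.8%, against 16.2% with edgeR, 12.3% with DESeq2 and 21.2% in the authors' deposited table.

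Between C2 and C3, limma with Benjamini-Hochberg adjustment called 0 members higher and 0 lower in H3K27ac, and 15 had an unadjusted p under 0.05. edgeR, DESeq2 and the authors' deposited table also called 0. A fit with a replicate block did call members, given in the last section. It called 8.49% of all regions, against 0.0435% in the main fit, and replicates share only a number. Over all regions, 0.0207% were called higher and 0.0229% lower, and over the strongest region of every gene 0.0305% and 0.0392%. Outside chromosome 8 the shares over all regions were 0.0194% and 0.0225%. The median log2 ratio over members was -0.16, but it turned to 0.05 under quantile normalization, which shifted the median of all regions by -0.14, and it was -0.33 with DESeq2. Zfp638 had 856 and 758 normalized reads in C2 against 2319 and 1520.2 in C3 (log2 ratio -1.22, SE 0.52, limma adjusted p = 0.25). Zfp462 had 979.9 and 628 in C2 against 2062 and 1341 in C3 (-1.08, SE 0.50, limma adjusted p = 0.29). Both libraries of C2 lay below both of C3 at these 2 genes, without a call.

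Changes of both marks were set side by side across members. The Spearman rho between the H3K9me3 and H3K27ac log2 ratios was 0.17 in C2 against OSKM, 0.20 in C3 against OSKM and -0.26 in C2 against C3 (162 members). Outside chromosome 8 (147 members) it was 0.02, 0.06 and -0.22. These are descriptions across genes that share libraries, and genes are not independent replicates.

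Members with a described role in silencing retroelements or keeping imprints were listed apart: 5 of 7 such genes were members. Zfp445 had strong H3K9me3, given above, and its H3K27ac was 269 and 258 normalized reads in C2 against 200.1 and 202 in OSKM (0.39, limma adjusted p = 0.31). Zfp809, which silences proviruses of the murine leukaemia virus type, had H3K9me3, in a region it shares with Zfp599, of 191 and 179.8 in C2 against 222 and 255 in OSKM, and of 206 and 176 in C3 against 248 and 279 in OSKM. Its H3K27ac was 554 and 369.5 in C2 against 731 and 936 in OSKM (-0.87, limma adjusted p = 0.034), which was not called because it missed the threshold without the lowest regions.

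Zfp568, which represses a placental promoter of Igf2, had near 1 read of H3K9me3 in each OSKM library and 4.59 and 18.1 normalized reads in C2. Its H3K27ac was 1699 and 1069 in C2 against 2628 and 2770.1 in OSKM (-1.0, limma adjusted p = 0.044), likewise not called. Zfp708 and Zfp932, which act on endogenous retroviruses, were weakly marked. Zfp708 had H3K9me3 of 8.02 and 13.9 in C2 against 24.7 and 24.2 in OSKM, below it in both lines, and Zfp932 had 3.44 and 37.6 in C2 against 7.67 and 11.7 in OSKM, where the libraries overlapped. None of the 5 was called for H3K27ac in C2 or C3.

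The genes of the machinery through which KRAB zinc finger proteins act were examined by H3K27ac. All 24 genes on the list of co-repression and H3K9 methylation had a region. In C2, 3 fell and 0 rose: Cbx3 and Cbx5, which encode heterochromatin proteins 1 gamma and alpha, with log2 ratios of -1.24 and -0.93, and Suv39h1, an H3K9 methyltransferase, with -1.49. DESeq2 called 1 of the 24 in C2, which was Suv39h1, and edgeR 5. Over the strongest region of every gene on chromosomes 1 to 19, limma called 7.66% lower and 3.33% higher in C2. In C3, limma called 0 of the 24, with 3 at an unadjusted p under 0.05, while edgeR called 1 and DESeq2 0. Between C2 and C3, limma, edgeR and DESeq2 each called 0, with 2 at an unadjusted p under 0.05.

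Peaks of the HA tag in both libraries were present at 14 members (8.38%) in C2+SKM cells at day 20 and at 9 (5.39%) in Empty+SKM cells. The histone libraries were made from iPS cells, so the HA and histone values of C2 need not describe the same cells. Over all genes the shares were 3.81% and 2.96%, and over other Zfp genes 0 of 236 in both groups. These are not like for like, since the members were chosen for an H3K9me3 region. The share over other genes with an H3K9me3 region was not counted. At 6 members both groups had peaks in both libraries, and the members so marked included genes of long extent such as Zfp804b and Zfp385b. Only Zfp638 had a peak in both C2 libraries, at 6.46-fold and 6.59-fold enrichment by the authors' peak caller, and none in either Empty library. A peak counted anywhere within 2000 bp of the gene, so these need not be the same site. At a -log10 q of at least 10, no member kept HA peaks in both C2 libraries. The C2 libraries also had more peaks in all, 12376 and 44939 against 10666 and 22632 in Empty. Zfp638 encodes a nuclear DNA- and RNA-binding protein, and it rose in H3K27ac in C3, with the losses of that call given above (2443 and 1595 against 914 and 939 in OSKM) but was not called in C2 (804 and 718 against 841 and 863 in OSKM). No HA library of C3 was analysed. The HA libraries were shallow, with 1629753 to 3896935 tags kept and a redundant share of 0.92 to 0.94.

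The histone libraries had 28947967 to 46304808 tags kept, with 3412599 to 8548902 reads in H3K9me3 regions and 7033486 to 17649231 in H3K27ac regions. All 10 markers of pluripotent cells on the list had an H3K27ac peak in both libraries of every line, and 5 of them (Pou5f1, Nanog, Sox2, Klf2 and Fbxo15) fell in C2 by limma, against 3 called by edgeR and 2 by DESeq2. In C3, limma, edgeR and DESeq2 called 0 of the 10, and 0 had an unadjusted p under 0.05. Of 7 fibroblast markers, 6 had a region, and their summed H3K27ac was between 71.1 and 135 normalized reads in every library of the tables with OSKM. Of 6 endoderm markers, 3 rose in C2 (Foxa2, Gata4 and Lamb1) and 5 in C3, while DESeq2 called 0 in C2 and 5 in C3. Their summed H3K27ac was 2376 and 1206 in C2 against 429 and 738 in OSKM, and 4347 and 2462 in C3 against 466 and 803 in OSKM. The part of these cell-type markers in the values of the Zfp genes was not tested.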

How the data were processed

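Of 22 samples, 16 have a processed file; the other 6 are inputs and were not analysed here. The submitters' processing notes name mm10, Bowtie2 2.2.5 and DiffBind 1.16.2, as well as SAMtools 1.3 and CASAVA 1.8.2. Per the file headers, peaks were called per library against 1 input with MACS 2.1.0.20150731 (histone marks) or 2.1.1.20160309 (HA) at a q-value of 0.01. C2 and OSKM share a pair of inputs and C3 has its own, so input and line cannot be told apart in comparisons with C3. The peak files deposited by the authors give a pileup signal, a −log10 p-value and q-value and a fold enrichment (a ratio). The region tables deposited by the authors give a signal in normalized reads for 4 libraries, a log2 fold change and a p-value. Tables were normalized separately, so tests stay within a table. Dividing by the lowest value of a library gave whole reads for 100% of values (tolerance 1e-06). For columns whose lowest value is near 1, whole reads are not claimed.

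For each gene, the strongest region by mean level was used, within 2000 bp for H3K9me3 and 2500 bp for H3K27ac. Regions come from peaks of all libraries. H3K27ac was tested with limma 3.58.1 in R 4.3.3, with edgeR 4.0.16 and DESeq2 1.42.0 on recovered reads as alternatives. A peak counted with an overlap of 1 bp or more. The floor for folds was 3 reads, covering counting error only. Python 3.11.15, pandas 2.3.3, NumPy 2.4.6 and matplotlib 3.10.9 were used, and the fits were tested on simulated data. The members, the gene lists and the rules were chosen with earlier results of these data known. Named members were the 10 highest in H3K9me3, the 2 highest per group of at least 4, up to 8 called per comparison and direction, the 5 largest differences without overlap, the retroelement and imprint list, and members with HA peaks in C2 only. Other members named were chosen after their values were seen.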

Additional observations from a re-analysis of the deposited data

Results flagged for a closer look

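In 7 cases both libraries of C2 lay above both OSKM libraries and both libraries of C3 below, or the reverse. With 2 libraries per line, a lack of overlap was common for H3K9me3, as the shares over all regions and over other genes given above show. How many regions of other genes met this rule for either mark was not counted. The 7 cases thus cannot be set against a background. The comparisons share the OSKM libraries. In H3K9me3, the log2 ratio over OSKM was 0.89 in C2 and -0.23 in C3 at Zfp518b, and 0.44 in C2 and -0.41 in C3 at Zfp980. These H3K9me3 differences were not tested. In H3K27ac, the log2 ratio over OSKM was -0.17 in C2 and 1.09 in C3 at Zfp638, -0.20 and 0.25 at Zfp758, and -0.49 and 0.61 at Zfp804b. It was 0.38 in C2 and -0.29 in C3 at Zfp872, and 0.26 and -0.45 at Zfp940. In the table of C2 and C3, limma called none of these 5 H3K27ac differences.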

How the results depend on the processing

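Among counts of members, 104 values under alternatives stayed within 1.5 times and 45 did not. Among single genes, 567 kept their call or side, 135 lost it and 0 changed sign. The causes were not tested. For H3K27ac, the share called over all regions moved under these settings as well, as given above. For H3K27ac in C2 against OSKM, the 2 members called higher became 1 with DESeq2, 0 with quantile normalization and 0 with the region at the start site, and 0 to 2 without 1 library. The 20 called lower became 48 with median-centred libraries, 0 with quantile normalization, 33 without the filter on low values, 13 at the start site and 6 without chromosome 8, and 10 to 68 without 1 library. In C3 against OSKM, the 4 called higher became 0 with quantile normalization and 0 at the start site, and 2 to 13 without 1 library. The 15 called lower became 5 with DESeq2, 8 in the authors' deposited table, 0 with quantile normalization, 9 at the start site and 3 without chromosome 8, and 5 to 45 without 1 library. Between C2 and C3, the 0 called lower became 1 without the filter on low values and 0 to 5 without 1 library.

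With a replicate block, 1 member was higher and 30 were lower between C2 and C3, with 8.49% of the whole table called in either direction, 2 higher and 29 lower in C2 against OSKM, and 4 higher and 14 lower in C3 against OSKM. Replicates share only a number: their deviations correlated for H3K27ac at -0.06 in C2 and OSKM, at -0.05 in C3 and OSKM and at 0.36 in C2 and C3. For H3K9me3, quantile normalization left 40 members lower in C2 than OSKM, against 69. No share over all regions or other genes is given for this setting or for those without 1 library. With a library left out, fewer values must lie apart for a lack of overlap. A rise in the counts that follow is therefore built in and is not a result about the members. Without 1 library, 46 to 55 were higher and 80 to 99 lower in C2, and 38 to 41 higher and 102 to 104 lower in C3 than OSKM, and 69 to 97 were higher and 33 to 49 lower in C2 than C3. At a -log10 q of at least 10, members with H3K9me3 peaks in both libraries were 63 in C2 and 64 in C3, and those with HA peaks were 0 in C2 and 1 in Empty. Counting extents alone gave 147 members and a window of 5000 bp gave 203. At this depth, values near 1 read do not carry a ratio.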
